A study of Mus musculus with 9 samples.

Results

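The comparison described here is the loss of CD103 on a Y3 background in mouse gut regulatory T cells (Tregs). Its members are 6 of the 9 arrays of the series, 3 titled Y3/CD103-/- and 3 titled Y3, and every difference below is Y3/CD103-/- minus Y3. The 3 wild-type (WT) arrays entered the fit for the shared estimate of spread, and their levels are given for orientation. All mice were of the C57BL/6 strain, per the labels. The Y3 group carries Y3 alone, and the Y3/CD103-/- group carries Y3 together with the loss of CD103, so Y3 is shared by both sides of the comparison. The labels do not describe Y3, which is read here from the series title as an alteration of IL-2 receptor β. They give no age, and no account of how CD103 was removed or in which cells. Cells that carried the red fluorescent reporter of Foxp3 were sorted as Tregs from the lamina propria of small and large intestine together. Between 10 and 20 ng of total RNA per sample was amplified for Affymetrix mouse Gene ST2.0 arrays. The sources used here do not say whether an array holds 1 mouse or a pool, so every p-value measures only the spread between these arrays. No array of mice that lack CD103 without Y3 was used here, so the effect of CD103 loss by itself cannot be told from these data.

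CD103 is the αE integrin chain, encoded by Itgae. It pairs with the β7 chain (Itgb7), and the heterodimer binds E-cadherin (Cdh1) on epithelial cells, which lets T cells lodge at the gut surface. TGF-β signalling induces CD103 on T cells of the mucosa, and many gut Tregs carry it. Tregs depend on IL-2, whose receptor passes its signal through JAK kinases to STAT5.

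Each array gave 39137 log2 signal values, of which 23521 were annotated to exactly 1 gene. With the brightest feature kept per gene and dim genes left out, 12792 genes were tested by a moderated linear model (limma), and p-values were adjusted over all of them by the Benjamini-Hochberg method. The 9 defining Treg and T cell markers, Foxp3, Il2ra, Ctla4, Ikzf2, Tnfrsf18, Cd4, Cd3e, Cd3d and Cd3g, stood between log2 7.12 and 10.55 on all 9 arrays, at least 3.89 above the median of their own array. Over all features, the Y3 arrays correlated with each other at r = 0.956 to 0.979 and the Y3/CD103-/- arrays at 0.930 to 0.942. The 0.979 was that of Y3 arrays 1 and 3, and each of these correlated with Y3 array 2 at 0.956. Each Y3/CD103-/- array correlated best with Y3 array 3 (0.943 to 0.960), not with another array of its own genotype. Each WT array likewise correlated best with a Y3 array, Y3 array 1, and not with another WT array. Being closest to a Y3 array was therefore not particular to Y3/CD103-/-. Y3 arrays 1 and 3 also had a wider spread of values (SD 1.87 and 1.88) than Y3 array 2 (1.75) and the Y3/CD103-/- arrays (1.72 to 1.77). The median of the tested genes was 4.60, 4.43 and 4.61 on the Y3 arrays and 4.38, 4.39 and 4.43 on the Y3/CD103-/- arrays. No labelling or hybridization batch is given in the labels.

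The first question is which genes differed when CD103 was lost. Itgae fell, and no other gene passed. Its log2 signal was 9.35, 9.11 and 9.51 on the Y3 arrays, 6.64, 6.05 and 6.86 on the Y3/CD103-/- arrays, and 8.06, 7.87 and 7.85 on the WT arrays. The 3 Y3/CD103-/- arrays were the lowest of the 9, in the direction the genotype label calls for. The difference was -2.81 ± 0.21 (SE), a 7.0-fold lower signal (adjusted p = 0.000679, limma), and it lay between -2.57 and -2.98 with each of the 9 arrays left out in turn (adjusted p from 0.00118 to 0.0113). Signal remained in Y3/CD103-/-, and no source used here says which exons the feature reads. Of the 12792 genes, 1 was called lower (0.00782% of genes) and 0 were called higher (0%). At an unadjusted p under 0.05, limma gave 1039 genes lower (8.12%) and 228 higher (1.78%). Each value is an average over bulk RNA, so fewer cells of a type and less RNA per cell cannot be told apart.

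The second question is how tightly the other genes were held, which a missed threshold does not show. A gene was counted as bounded within 2-fold where the whole 95% interval of its difference lay between -1 and 1 on the log2 scale, and within 1.5-fold where it lay inside the narrower limits. Of the 12792 genes, 11317 (88.5%) were bounded within 2-fold and 4786 (37.4%) within 1.5-fold. The median size of the differences was 0.18, and the median reach of the intervals was 0.45 to either side. The brightest genes were bounded more tightly than the others. With the genes split into 3 equal classes by mean signal, 94.8% of the brightest class lay within 2-fold and 55.6% within 1.5-fold, against 85.1% and 28.8% of the middle class and 85.5% and 27.8% of the dimmest. List shares below are therefore given with the mean log2 signal of the list where it departs from the rest.

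The whole distribution was shifted slightly downward. The median difference of the tested genes was -0.10, and 8465 of them (66.2%) lay below 0. That shift depended on the scaling: the median was -0.02 after quantile normalization and 0.05 after the tested genes of each array were centred. Of the genes at an unadjusted p under 0.05, 82.0% were lower as deposited, 60.3% after quantile normalization and 34.3% after that centring. The count of such genes, 1267 (9.9%), was 768 without Y3 array 1, 739 without Y3 array 3, 697 with Y3 arrays 1 and 3 averaged as 1 sample and 2238 with array weights. A list median is therefore read against -0.10 and not against 0.

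The integrin partner of CD103 did not follow it. Itgb7 stood at 7.31, 7.26 and 7.31 on the Y3 arrays and 6.98, 7.28 and 7.07 on the Y3/CD103-/- arrays. The groups overlapped, and the difference of -0.18 had an interval of -0.55 to 0.18, inside 1.5-fold. Itgav and Itgb8, which together form an integrin that activates TGF-β, differed by 0.27 (-0.07 to 0.62) and 0.01 (-0.39 to 0.40). Itgav was 9.07, 9.01 and 9.31 on the Y3 arrays and 9.43, 9.40 and 9.38 on the Y3/CD103-/- arrays, so its groups did not overlap although it did not pass. Arrays of the 2 groups did not overlap for 526 genes in the higher direction (4.11%) and 1848 in the lower (14.4%). Of 16 tested integrin chains, 14 were bounded within 2-fold, and the exceptions were Itgae itself and Itga3 (0.49, -0.17 to 1.14). Itgal and Itgb2, the 2 chains of LFA-1, differed by -0.07 (-0.39 to 0.25) and -0.01 (-0.35 to 0.33). Itga6, the α chain of laminin receptors, was the only chain besides Itgae at an unadjusted p under 0.05 (-0.43, -0.82 to -0.05). The median of the chains was -0.02.

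**Figure D1:**
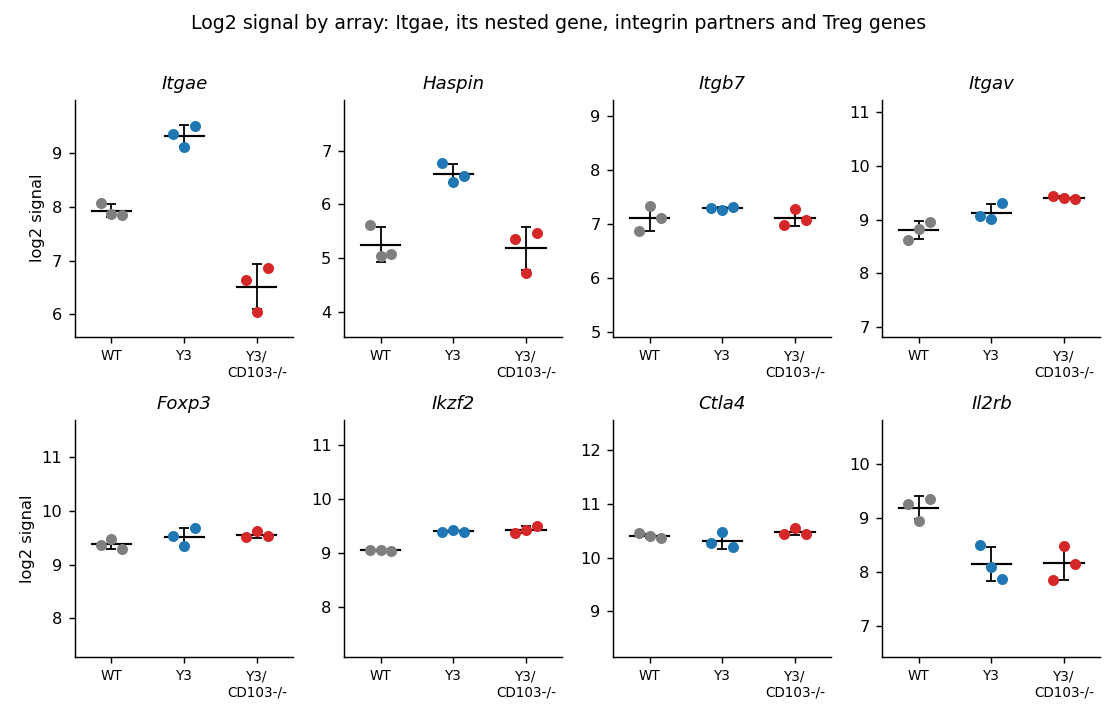
Log2 signal of 8 genes on each of the 9 arrays. Points are arrays, long bars are group means and whiskers are 1 SD over 3 arrays; every panel spans the same number of log2 units. Itgae and Haspin are lower on all 3 Y3/CD103-/- arrays than on all 3 Y3 arrays, while Itgb7, Foxp3, Ikzf2, Ctla4 and Il2rb overlap between those groups.

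Among adhesion adaptors and ligands, 33 of 36 were bounded within 2-fold, with a median of -0.11. The adhesion kinase Ptk2b differed by -0.02 (-0.32 to 0.29), the small GTPase Rap1b by -0.01 (-0.33 to 0.30) and Cd47 by -0.02 (-0.34 to 0.29). Vav1, a guanine nucleotide exchange factor of antigen receptor signalling, was among the 3 not bounded: it was 6.08, 5.87 and 5.69 in Y3 and 5.17, 5.07 and 5.24 in Y3/CD103-/-. Its arrays did not overlap, and the difference of -0.72 did not pass (adjusted p = 0.314, limma). The others not bounded were Actn1 (-0.53) and Cdh1 (0.54). Homing and retention receptors were bounded in 18 of 22, among them the gut homing receptor Ccr9 (0.07, -0.25 to 0.39), Cxcr4 (0.01, -0.35 to 0.37) and the transcription factor Klf2 (-0.01, -0.37 to 0.35). The 4 others were Gpr15, Gpr18, S1pr1 and S1pr4, and S1pr1 and S1pr4, receptors for the egress signal sphingosine-1-phosphate, were among the genes at an unadjusted p under 0.05 (-0.79 and -0.70).

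Haspin lies within the span of Itgae in the GRCm38.p6 gene table, the only gene that does, and encodes a histone H3 kinase of mitosis. Its promoter window from RefSeq (GRCm38.p6, chr11:73138245-73138544, minus strand, 250 bases before to 50 after the start) is shown because the gene lies inside the targeted one and its signal was lower on the same arrays. Capitals mark TGTGGT, the RUNX core, at position -167 from the start, and TTTGAA, the cell cycle homology region, at position 7. The 2 motifs were searched on both strands and do not overlap.
Haspin: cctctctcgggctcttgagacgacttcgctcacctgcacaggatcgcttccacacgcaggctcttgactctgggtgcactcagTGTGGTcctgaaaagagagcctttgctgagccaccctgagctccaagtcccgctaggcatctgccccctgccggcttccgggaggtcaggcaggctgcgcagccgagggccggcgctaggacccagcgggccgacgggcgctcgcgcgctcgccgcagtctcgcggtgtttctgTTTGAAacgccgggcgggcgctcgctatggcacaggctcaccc
TGTGGT is in 16.8% and TTTGAA in 17.9% of the 32851 promoter windows, so neither is particular to this gene. A match is a run of letters and not a measured site.

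Haspin followed Itgae on these arrays, although it did not pass. It stood at 6.76, 6.42 and 6.54 in Y3, 5.36, 4.72 and 5.46 in Y3/CD103-/-, and 5.62, 5.05 and 5.07 in WT. All 3 Y3/CD103-/- arrays lay below all 3 Y3 arrays and within or below the span of the WT arrays. The difference was -1.39 (-1.90 to -0.88), 2.62-fold lower (adjusted p = 0.182, limma). It passed with a trended and robust variance (adjusted p = 0.0280) and with array weights (0.0352), and its adjusted p reached 0.824 without Y3 array 3. Whether its feature also reads transcripts of Itgae was not tested.

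The other neighbours stayed close to the median of all genes. Of the 30 tested genes nearest to Itgae, 15 on either side, 29 were bounded within 2-fold and 7 within 1.5-fold. The shares of all genes were 88.5% and 37.4%, so fewer neighbours lay within 1.5-fold. Their median was -0.15, against -0.10. The 29 without Haspin ranged from -0.50 to 0.34. Ncbp3, the neighbour on the other side of Itgae and a cap-binding protein, was the only one of them at an unadjusted p under 0.05 (-0.46, -0.87 to -0.04), and its arrays overlapped. Atp2a3, the calcium pump of the endoplasmic reticulum of blood cells, differed by -0.15 (-0.47 to 0.17).

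**Figure D2:**
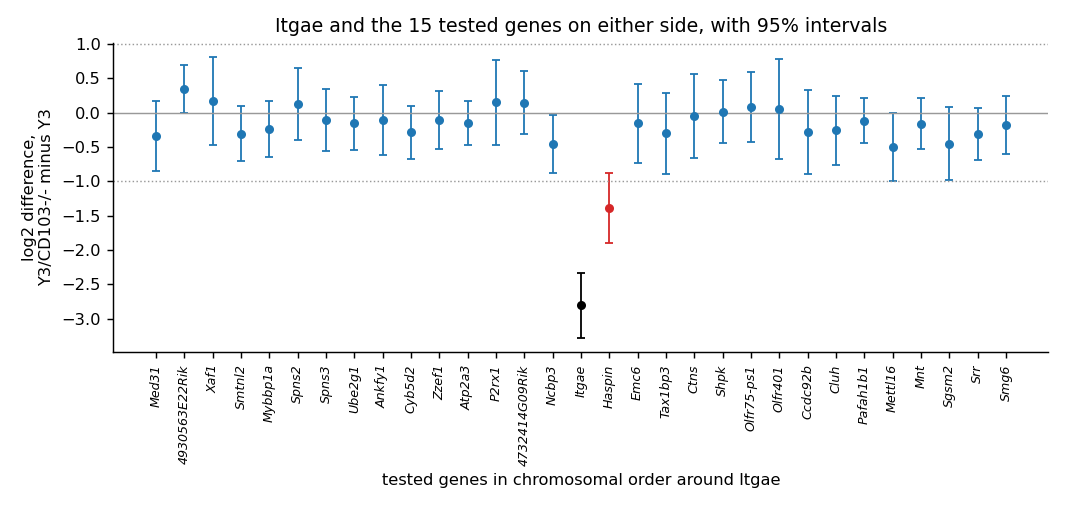
Log2 difference (Y3/CD103-/- minus Y3) of Itgae (black), Haspin (red, inside Itgae) and the other tested genes nearest to it (blue), in chromosomal order; whiskers are 95% intervals and dotted lines mark 2-fold. Itgae at -2.81 and Haspin at -1.39 stand below the other 29 genes, which lie between -0.50 and 0.34.

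Treg identity genes were bounded about as often as all genes. Foxp3, which the sort selected on, stood at 9.52, 9.35 and 9.68 in Y3 and 9.51, 9.62 and 9.53 in Y3/CD103-/-, a difference of 0.03 (-0.30 to 0.36). Ikzf2, which encodes the Treg factor Helios, stood at 9.39, 9.42 and 9.39 against 9.38, 9.43 and 9.50, a difference of 0.04 (-0.26 to 0.33). Ctla4, an inhibitory receptor that Tregs use to strip co-stimulatory ligands, stood at 10.28, 10.48 and 10.19 against 10.43, 10.55 and 10.45 (0.16, -0.16 to 0.48). The arrays of the 2 groups overlapped for all 3 genes, and each interval lay within 1.5-fold. In the whole list, 25 of 28 tested genes were bounded within 2-fold and 16 within 1.5-fold, with a median of -0.04 and a mean signal of 7.46. Those shares, 89.3% and 57.1%, stand beside 88.5% and 37.4% of all genes and 94.8% and 55.6% of the brightest class. The exceptions were Itgae, the orphan receptor gene Gpr83 (-0.43, -1.01 to 0.15) and Socs2 (0.61, -0.04 to 1.26). At an unadjusted p under 0.05, S100a6 lay higher (0.53), and Izumo1r and Nrp1 lay lower (-0.50 and -0.41) besides Itgae. Izumo1r, the folate receptor family member FR4, was 8.28, 7.98 and 8.30 in Y3 and 7.44, 7.92 and 7.70 in Y3/CD103-/-, and none of the 3 passed.

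Suppressive effector molecules were bounded within 2-fold in 21 of 23 genes and within 1.5-fold in 15, with a median of 0.02. Il10, the anti-inflammatory cytokine of gut Tregs, stood at 9.55, 9.60 and 10.02 in Y3 and 9.46, 9.87 and 9.48 in Y3/CD103-/- (-0.12, -0.52 to 0.28). The co-stimulatory receptor Icos (0.02, -0.32 to 0.37) and the inhibitory receptor Tigit (0.02, -0.34 to 0.39) were among the tightest. Lgals3 and Prf1 were the 2 not bounded, and Furin, a protease that matures TGF-β, was the only member at an unadjusted p under 0.05 (0.50). Treg transcription factors were bounded in 29 of 33, with Foxo1 (0.01, -0.30 to 0.32) the tightest, followed by Ikzf2 and Ikzf4 (0.01, -0.33 to 0.34). Those not bounded were Bach2, Eomes, Lef1 and Myb, all 4 lower in Y3/CD103-/-. Myb was 6.43, 6.20 and 6.13 in Y3 and 5.47, 5.33 and 5.85 in Y3/CD103-/-, without overlap (-0.71, adjusted p = 0.308, limma). Gata3, the master factor of type 2 cells, differed by 0.09 (-0.22 to 0.40), Tbx21, which encodes T-bet, by -0.32 (-0.71 to 0.07), and Runx3, a RUNX factor of tissue-resident T cells, by -0.15 (-0.50 to 0.21).

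The IL-2 receptor axis showed no difference that passed. Il2rb stood at 8.50, 8.10 and 7.87 in Y3 and 7.86, 8.48 and 8.14 in Y3/CD103-/- (0.01, -0.48 to 0.49). Il2ra, which encodes CD25, stood at 7.41, 7.48 and 7.61 against 7.12, 7.29 and 7.45 (-0.22, -0.54 to 0.11). Both genes overlapped between the groups and were bounded within 1.5-fold. Of 20 tested receptor, JAK, STAT5 and adaptor genes, 19 were bounded within 2-fold, and Il15ra, the α chain of the IL-15 receptor, was the exception (-0.52, -1.03 to 0.00). Sos1, Mtor and Ptpn6, 3 of 20 genes, lay lower with an unadjusted p under 0.05 (-0.58, -0.44 and -0.41). Of 33 IL-2 and STAT5 targets, 30 were bounded. Bcl2, the survival factor that IL-2 supports, was 7.23, 6.66 and 7.26 in Y3 and 6.48, 6.26 and 6.54 in Y3/CD103-/- (-0.62, adjusted p = 0.343, limma), while Mcl1 (-0.04, -0.35 to 0.27) and Bcl2l1 (0.01, -0.33 to 0.35) were bounded within 1.5-fold. Of 7 SOCS and CIS genes, 0 were at an unadjusted p under 0.05 and 0 passed in limma. All except Socs2 were bounded within 2-fold, with Cish, the STAT5-induced inhibitor, at 0.11 (-0.22 to 0.44).

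Receptors for other signals gave no call either. Of 32 cytokine receptors, 28 were bounded within 2-fold and 8 within 1.5-fold (25.0%, against 37.4% of all genes), with a median of -0.09. The 4 not bounded were Csf2rb, Il10ra, Il17rb and Tgfbr1. Il10ra, the ligand-binding chain of the IL-10 receptor, was 4.58, 5.0 and 4.97 in Y3 and 4.09, 4.38 and 3.95 in Y3/CD103-/-, without overlap (-0.71, -1.13 to -0.29). Il21r, the IL-21 receptor, lay the other way at 9.27, 9.23 and 9.09 against 9.70, 9.55 and 9.68 (0.45, 0.13 to 0.77). Neither passed (adjusted p = 0.314 and 0.385, limma). Of 33 inhibitory and co-stimulatory receptors, 31 were bounded, all except Cd226 and Cd200, with a median of -0.12. Cd226, Cd200, Slamf6 and Ly9 lay lower with an unadjusted p under 0.05 (-0.60, -0.56, -0.49 and -0.40), 4 of 33 against 8.12% of all genes. None of these 4 was left at that threshold after the tested genes were centred or without Y3/CD103-/- array 1.

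TGF-β, SMAD, RUNX and retinoic acid genes, the pathways that induce CD103, were bounded in 29 of 31, and the exceptions were Itgae and Tgfbr1. Tgfbr1, the type I receptor of TGF-β, was 4.56, 4.60 and 4.55 in Y3 and 4.0, 3.98 and 4.06 in Y3/CD103-/-. The groups did not overlap, and the difference of -0.56 did not pass (adjusted p = 0.438, limma). The targets and inhibitors Ldlrad4 (-0.03, -0.37 to 0.31), Pmepa1 (-0.04, -0.37 to 0.29) and Tgif1 (-0.06, -0.38 to 0.26) were the tightest.

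T helper programmes gave no call. The Th1 list was bounded in 16 of 20, with Stat4 at 0.12 (-0.22 to 0.45) and Il18rap at 0.05 (-0.37 to 0.46), and Ccl3, Ccl4, Eomes and Xcl1 were not bounded. Cytotoxic granule genes were bounded in 20 of 23, with Gzma at 0.08 (-0.26 to 0.42) and Gzmb at 0.18 (-0.14 to 0.50). Gzmb was 10.19, 9.94 and 10.12 in Y3 and 10.19, 10.38 and 10.22 in Y3/CD103-/-, so the lowest Y3/CD103-/- array equalled the highest Y3 array to 2 decimals. Tissue repair genes were bounded in 18 of 22. Pparg, a nuclear receptor of tissue Tregs, was higher at an unadjusted p under 0.05 (0.82) and Il4 and Il17rb lower (-0.67 and -0.75), at means over the 9 arrays of 3.01, 3.91 and 5.01. The mean of Pparg lay below the array medians of 3.15 to 3.23. T follicular genes were bounded in 15 of 17, with Bcl6 at 0.01 (-0.36 to 0.38), but the list leaned downward. Its median was -0.17 against -0.10 of all genes, and 12 of 17 lay below 0. At an unadjusted p under 0.05, 3 were lower (17.6%, against 8.12% of all genes) and 0 higher. The median was -0.15 after quantile normalization and -0.02 after the tested genes were centred, and the 3 became 2 and 1.

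Antigen receptor and activation genes gave no call, and the immediate early genes had the highest share within 1.5-fold of the lists shown. Of 37 genes of the receptor complex and proximal signalling, 34 were bounded within 2-fold and 24 within 1.5-fold (91.9% and 64.9%, mean signal 7.51), with Rasgrp1 at 0.00 (-0.30 to 0.31) and Cblb at -0.01 (-0.33 to 0.32). Of 39 immediate early and activation genes, 38 were bounded within 2-fold and 33 within 1.5-fold (84.6%, mean signal 7.89), with Atf3 the exception. Tnfaip3, which restrains NF-kB, differed by 0.04 (-0.26 to 0.35), and Cd69, the early activation marker that also retains T cells in tissue, by -0.21 (-0.54 to 0.13). Within this tight list 7 genes had Y3/CD103-/- arrays above all Y3 arrays: Egr1, Fos, Fosb, Fosl2, Ier2, Junb and Jund, against 4.11% of all genes. Egr1 was 5.51, 5.67 and 5.87 in Y3 and 6.52, 6.01 and 5.99 in Y3/CD103-/- (0.49, 0.07 to 0.90), and Ier2 was 5.76, 5.76 and 5.48 against 6.13, 6.46 and 5.77 (0.45, 0.02 to 0.88). Both separated narrowly, and 0 members passed in limma. The count at an unadjusted p under 0.05, 2 higher and 0 lower, ran from 0 to 8 higher over the alternatives, 8 of them after the tested genes were centred. Heat shock and dissociation genes were bounded in 16 of 20, with a median of 0.03.

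**Figure D3:**
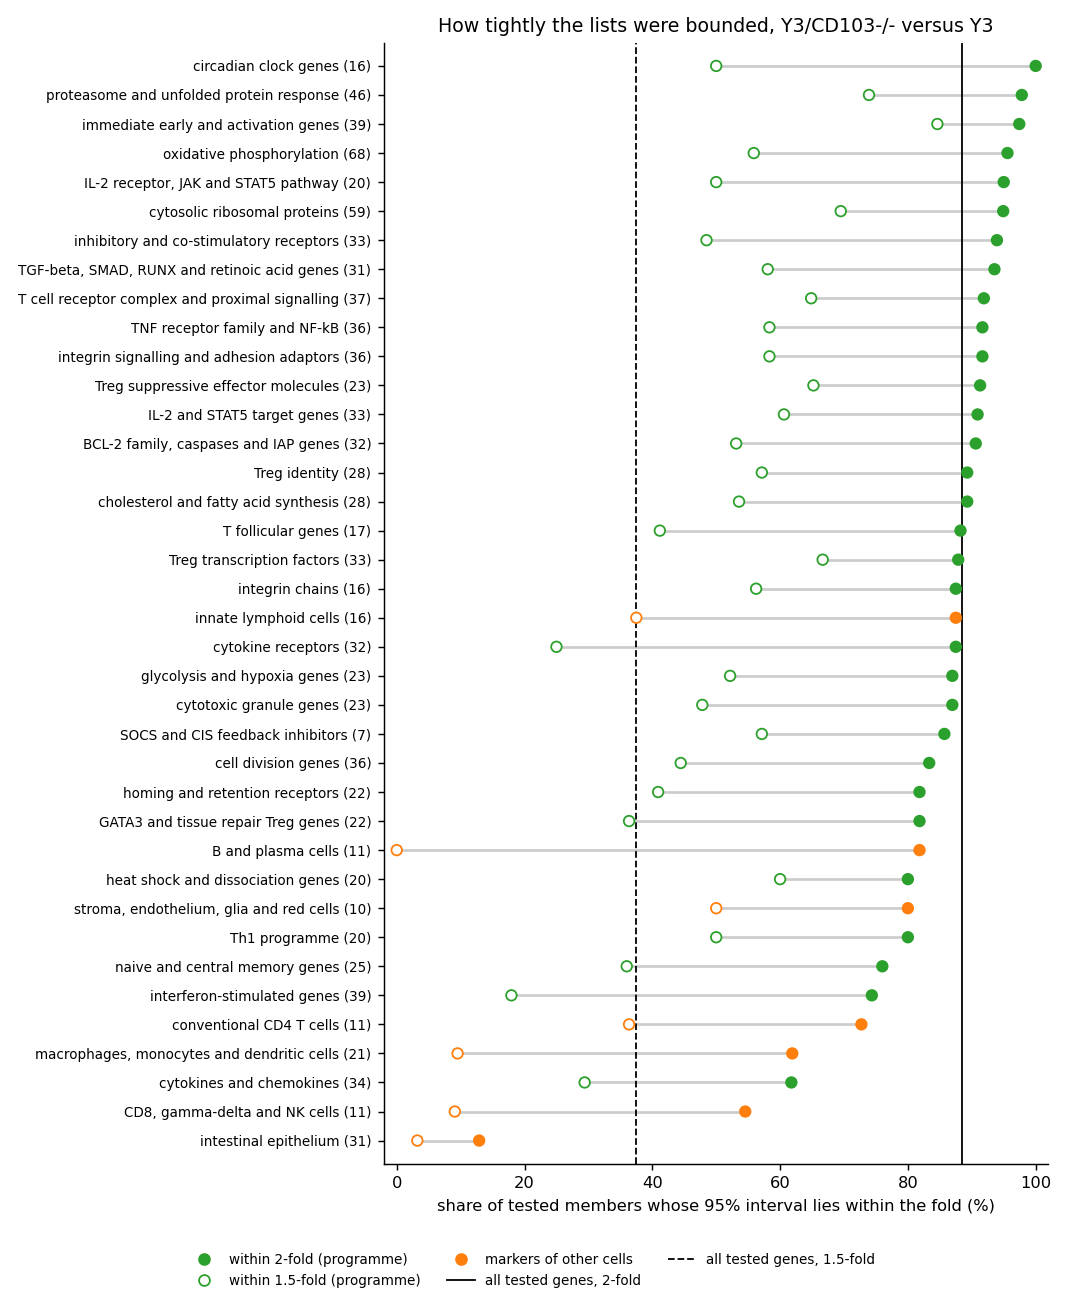
Share of the tested members of each list shown whose 95% interval lay within 2-fold (filled) and within 1.5-fold (open), with the number of tested members in brackets; lines mark all 12792 tested genes (88.5% and 37.4%). Circadian, proteasome and immediate early genes sit at the top, and cytokines, CD8, γδ and NK markers, macrophage markers and epithelial markers at the bottom.

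Housekeeping programmes gave no call. Of 46 proteasome and unfolded protein response genes, 45 were bounded within 2-fold and 34 within 1.5-fold (mean signal 7.14), and Ddit3, a stress factor that promotes cell death, was the exception (-0.73, -1.42 to -0.03). Calr, a chaperone of the endoplasmic reticulum, differed by 0.01 (-0.32 to 0.34). Cytosolic ribosomal proteins were bounded in 56 of 59 (mean signal 8.02), with Rpl5, Rps15 and Rps16 outside, and ribosomal genes have near-identical copies that a feature may also read. Circadian clock genes were bounded in 16 of 16, with the repressors Bhlhe40 (0.05, -0.28 to 0.37) and Per1 (0.06, -0.28 to 0.39) the tightest. Glycolysis and hypoxia genes were bounded in 20 of 23, with Gapdh at 0.06 (-0.24 to 0.37). Pdk1, the kinase that keeps pyruvate from the mitochondrion, was the lowest at -1.07: it was 5.36, 4.37 and 5.29 in Y3 and 3.62, 4.16 and 4.02 in Y3/CD103-/-, with Y3 array 2 close to the Y3/CD103-/- arrays. Lipid synthesis genes were bounded in 25 of 28, BCL-2 family, caspase and IAP genes in 29 of 32, and TNF receptor and NF-kB genes in 33 of 36.

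Some lists drifted, in the sense that members leaned 1 way or spread more widely, without a member that passed. Oxidative phosphorylation genes, at a mean signal of 6.75, were bounded about as often as the brightest class. Within 2-fold lay 65 of 68 (95.6%, against 94.8% of that class), and within 1.5-fold 55.9% (against 55.6%). They leaned downward: 57 of 68 lay below 0 (66.2% of all genes did), and the median was -0.14 against -0.10. At an unadjusted p under 0.05, 9 were lower (13.2%, against 8.12% of all genes) and 0 higher. The lean was not particular to this list. Of the proteasome and unfolded protein response genes 40 of 46 lay below 0, and of the adhesion adaptors and ligands 28 of 36. At that threshold 2 and 5 of these were lower, and 1 was higher in each list. Ndufa1, a subunit of complex I, was 8.17, 8.01 and 8.37 in Y3 and 7.42, 7.75 and 7.68 in Y3/CD103-/- (-0.57, -0.92 to -0.22). The lean went with the scaling. After the tested genes were centred, 33 of 68 lay below 0, 1 was lower at an unadjusted p under 0.05, and the median was 0.01. The 9 became 5, 11 and 3 without Y3 arrays 1, 2 and 3, and 4, 10 and 6 without Y3/CD103-/- arrays 1, 2 and 3.

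Interferon-stimulated genes had the lowest median of the 32 programme lists, -0.20 over 39 genes, with 31 below 0. They were also among the loosest, 29 within 2-fold and 7 within 1.5-fold, at a mean signal of 5.18. At an unadjusted p under 0.05, 6 were lower (15.4%, against 8.12% of all genes) and 0 higher: Ifih1, Trim30a, Ifit1, Iigp1, Ddx58 and Herc6. Ifih1, the RNA sensor MDA5, was 5.96, 5.90 and 6.33 in Y3 and 5.34, 5.11 and 5.53 in Y3/CD103-/-. Its arrays did not overlap, and the difference of -0.74 (-1.13 to -0.35) kept its sign over the alternatives, at -0.84 to -0.59. Irgm1 (0.21, -0.11 to 0.53) and Oasl1 (0.21, -0.29 to 0.70) leaned the other way. The 6 became 2 after quantile normalization and 1 after the tested genes were centred, and 4, 6 and 3 without Y3 arrays 1, 2 and 3, and the list median ran from -0.32 to -0.05. Gbp8, a guanylate-binding protein outside that list, was 7.31, 7.24 and 7.52 in Y3 and 6.25, 6.62 and 6.32 in Y3/CD103-/- (-0.96, adjusted p = 0.182, limma). It passed with the trended and robust variance (adjusted p = 0.0143) and with array weights (0.0456). It belongs to a family of close copies that a feature may also read.

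Naive and central memory genes leaned downward in a subset. Of 25 tested, 19 were bounded within 2-fold, and 6 lay lower with an unadjusted p under 0.05 (24.0%, against 8.12% of all genes): S1pr1, Dapl1, Lef1, Igfbp4, Actn1 and Itga6. S1pr1 was 6.65, 6.28 and 6.03 in Y3 and 5.57, 5.51 and 5.51 in Y3/CD103-/- (-0.79, -1.47 to -0.11). Lef1, a transcription factor of naive T cells, was 6.75, 6.62 and 6.56 against 5.71, 6.28 and 6.03 (-0.64, -1.14 to -0.13). Neither gene overlapped between the groups, and neither passed (adjusted p = 0.455 and 0.435, limma). Il7r (0.25, -0.19 to 0.70), Foxo1 and Cd27 (0.01, -0.33 to 0.34) did not lean with them, and the list median of -0.10 was that of all genes. The 6 became 2 after quantile normalization, 2 without Y3 array 1 and 1 without Y3/CD103-/- array 2.

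**Figure D4:**
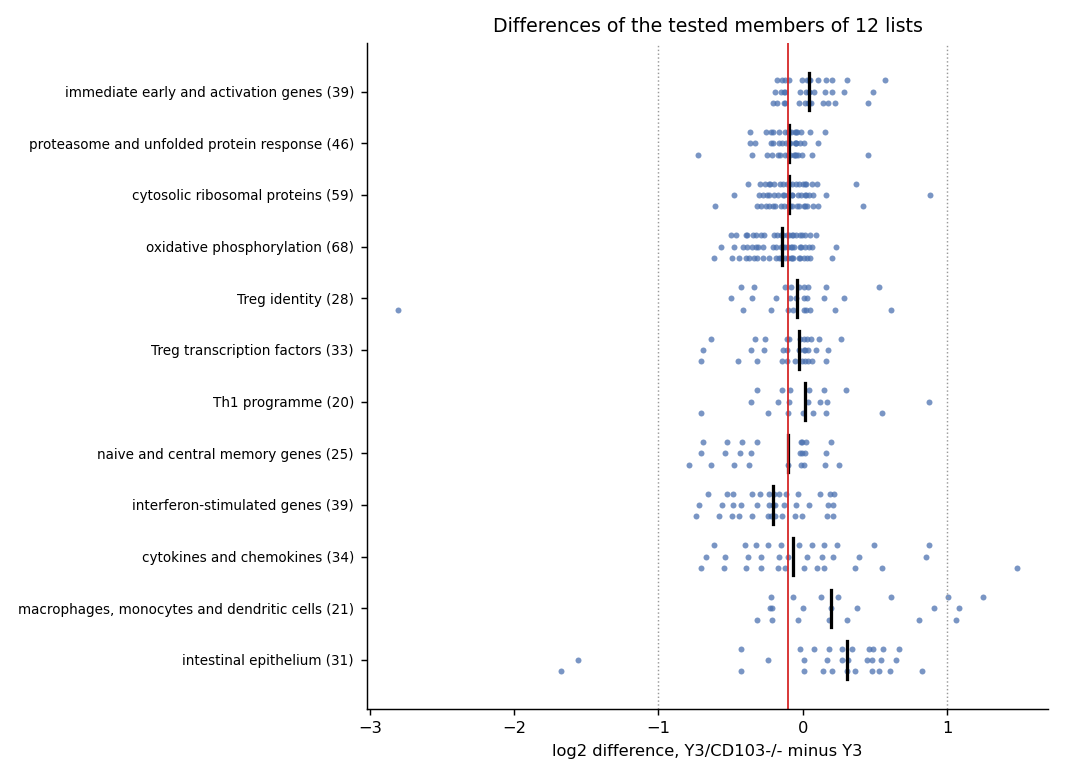
Log2 difference (Y3/CD103-/- minus Y3) of each tested member of 12 lists; each point is a gene, black bars are list medians, the red line is the median of all tested genes (-0.10) and dotted lines mark 2-fold. Immediate early and proteasome genes form narrow bands, interferon-stimulated genes lie left of the red line by their median (-0.20), and the macrophage and epithelial lists lie to its right (0.20 and 0.31).

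Cytokines and chemokines were the loosest programme, with 21 of 34 bounded within 2-fold. Il1b, the inflammatory cytokine IL-1β, was 4.48, 4.63 and 4.54 in Y3, 6.46, 6.26 and 5.40 in Y3/CD103-/- and 5.59, 5.83 and 6.82 in WT. All Y3/CD103-/- arrays lay above all Y3 arrays, and the difference of 1.49 (0.76 to 2.22) did not pass (adjusted p = 0.308, limma). Ccl3 and Cxcl2, chemokines that draw myeloid cells, were 4.68, 4.90 and 4.90 against 5.63, 6.09 and 5.37, and 5.12, 4.99 and 5.27 against 6.37, 5.62 and 5.96. Both separated (0.87 and 0.85) without passing. Xcl1, Il4 and Ccl25 lay lower with an unadjusted p under 0.05 (-0.70, -0.67 and -0.62). Tgfb1 was held at 0.14 (-0.19 to 0.48).

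Markers of cell types that may pass through a sort were set beside these values. Of 31 listed macrophage, monocyte and dendritic cell genes, 21 were tested. At an unadjusted p under 0.05, 7 were higher in Y3/CD103-/- (33.3% with 0 lower, against 1.78% and 8.12% of all genes), and 8 had arrays wholly above those of Y3. The summed level of the list, as its mean, was 4.38, 4.45 and 4.51 on the Y3 arrays, 4.84, 4.74 and 4.74 on the Y3/CD103-/- arrays and 4.68, 5.16 and 5.06 on the WT arrays. The Y3 arrays were thus the lowest, and the 7 genes were also lower on average in Y3 than in WT, a comparison that shares the Y3 arrays.

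The promoter windows of H2-Aa and H2-Eb1, chains of class II MHC molecules, are shown because these genes led the list together. They are RefSeq windows of GRCm38.p6, chr17:34287774-34288073 on the minus strand and chr17:34305617-34305916 on the plus strand. Capitals mark TGATTGG, letters of the Y box of class II genes, searched on both strands.
H2-Aa: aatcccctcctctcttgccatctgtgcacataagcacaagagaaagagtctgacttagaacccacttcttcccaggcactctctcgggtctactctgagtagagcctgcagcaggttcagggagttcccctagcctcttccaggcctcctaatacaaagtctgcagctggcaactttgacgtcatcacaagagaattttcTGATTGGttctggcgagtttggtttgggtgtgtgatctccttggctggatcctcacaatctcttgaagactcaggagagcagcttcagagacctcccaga
H2-Eb1: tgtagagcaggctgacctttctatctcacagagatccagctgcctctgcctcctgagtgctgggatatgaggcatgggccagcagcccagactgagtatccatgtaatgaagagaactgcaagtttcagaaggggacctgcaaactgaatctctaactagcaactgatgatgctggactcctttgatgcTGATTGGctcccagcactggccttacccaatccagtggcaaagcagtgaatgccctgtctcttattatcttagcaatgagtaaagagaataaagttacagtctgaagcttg
The match begins at position -50 from the start of H2-Aa and -61 from that of H2-Eb1, and 7.82% of the 32851 windows hold these letters.

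H2-Aa was 4.34, 5.10 and 4.93 in Y3, 6.32, 5.96 and 5.84 in Y3/CD103-/- and 5.87, 7.12 and 6.77 in WT. H2-Eb1 was 4.02, 4.44 and 4.13, then 5.61, 5.40 and 4.84, then 4.72, 5.73 and 5.67 in the same order. For both, every Y3/CD103-/- array lay above every Y3 array. The differences were 1.25 (0.57 to 1.93) and 1.08 (0.45 to 1.72), neither of which passed (adjusted p = 0.308 and 0.314, limma; up to 0.842 and 0.859 over the alternatives). C1qb, a complement subunit made by macrophages, was 4.23, 3.88 and 4.39 in Y3 and 5.42, 5.19 and 5.08 in Y3/CD103-/- (1.06, 0.48 to 1.64). Csf1r, which macrophages need to grow, was 3.64, 3.32 and 3.79 against 4.60, 4.73 and 4.14 (0.91, 0.41 to 1.41). H2-Ab1, Tyrobp and Lyz2 completed the 7, at 1.00, 0.80 and 0.61.

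Other members of the list did not move with them. Cd68, a lysosomal protein of macrophages, was 6.25, 5.97 and 6.29 in Y3 and 6.09, 6.23 and 6.10 in Y3/CD103-/- (-0.03, -0.41 to 0.35). Ccr2 (0.13, -0.41 to 0.66), Cx3cr1 (-0.22, -0.67 to 0.24) and Ciita (-0.22, -0.64 to 0.21), the coactivator of class II genes, were bounded within 2-fold. H2-Ob, a class II gene outside the list, lay lower without overlap. It was 3.59, 3.64 and 3.52 in Y3 and 2.85, 2.65 and 2.79 in Y3/CD103-/-, the latter below the array medians of 3.15 to 3.23. Its difference of -0.82 (-1.14 to -0.50) did not pass (adjusted p = 0.193, limma). The list median was 0.20, and it was 0.19 to 0.35 over the alternatives, which included both scalings. The count of 7 was 4 without Y3 array 1 and 4 without Y3/CD103-/- array 1, and 4 to 8 over all alternatives. The part of such cells in the values of Il1b, Ccl3 and Cxcl2 was not tested.

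**Figure D5:**
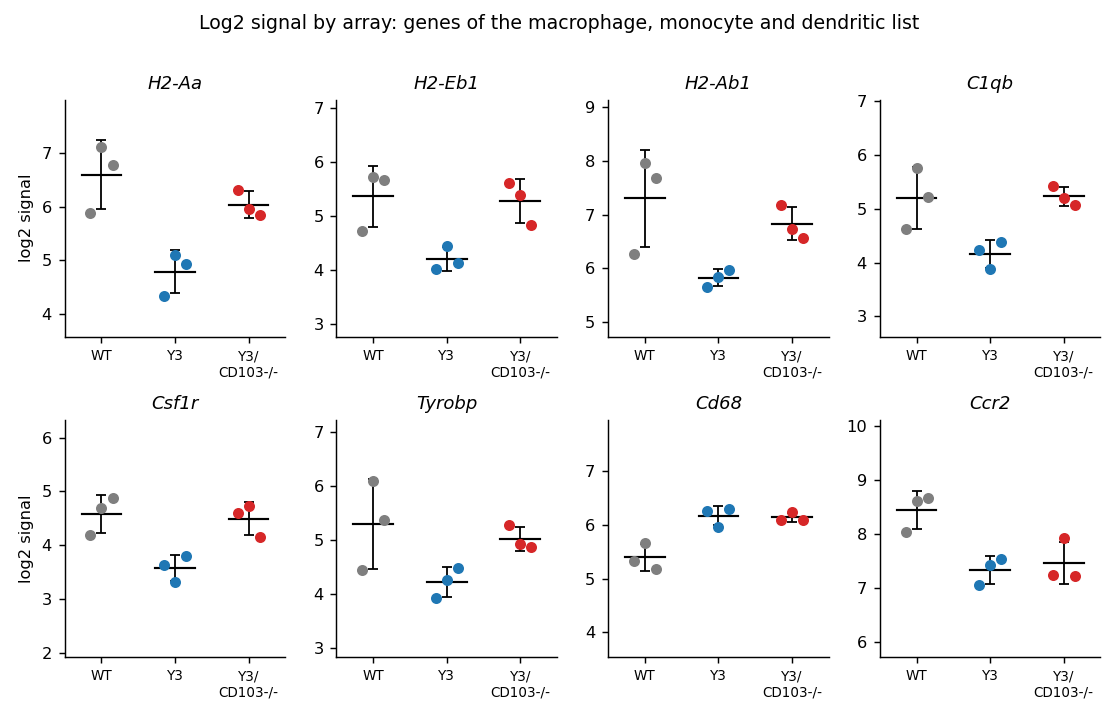
Log2 signal of 8 genes of the macrophage, monocyte and dendritic cell list on each of the 9 arrays. Points are arrays, long bars are group means and whiskers are 1 SD over 3 arrays; every panel spans the same number of log2 units. H2-Aa, H2-Eb1, H2-Ab1, C1qb, Csf1r and Tyrobp are higher on every Y3/CD103-/- array than on every Y3 array, while Cd68 and Ccr2 overlap.

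Epithelial genes were the least bounded. Of 31 tested, 4 lay within 2-fold (12.9%), and 0 were at an unadjusted p under 0.05 in limma. The list mean was 4.87, 4.04 and 4.48 on the Y3 arrays and 5.64, 4.31 and 3.93 on the Y3/CD103-/- arrays, so the highest and the lowest of the 6 were both Y3/CD103-/- arrays. Muc2, the goblet cell mucin, was 7.22 on Y3/CD103-/- array 1 and between 3.41 and 4.50 on the other 5. The list median of 0.31 was -0.27 without Y3/CD103-/- array 1 and 0.64 without Y3/CD103-/- array 3. Lyz1 and Defa24, Paneth cell products, were the lowest, at -1.68 (-3.95 to 0.60) and -1.56 (-4.06 to 0.95).

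The remaining marker lists held few genes at an unadjusted p under 0.05. B and plasma cell genes had 2 of 11 higher at that threshold, Jchain (0.88) and Cd79a (0.36), at a mean signal of 3.63. That share was 18.2%, against 1.78% of all genes, and the count ran from 0 to 2 over the alternatives. CD8, γδ and NK cell genes had 1 of 11 lower, Sox13 (-0.59), innate lymphoid genes 1 of 16, Il17rb, and conventional CD4 T cell genes 1 of 11, Il4. Granulocyte and mast cell genes had 2 of 21 tested, Mpo (0.05) and Cxcr2 (0.64), of which Cxcr2 was higher at an unadjusted p under 0.05, and stromal, endothelial, glial and red cell genes had 0 of 10 at an unadjusted p under 0.05 in limma. Of the X-inactivation and Y-linked genes, 0 of 6 were at an unadjusted p under 0.05. The Y-linked Uty was the highest (0.04, -0.31 to 0.38) and the Y-linked Kdm5d the lowest (-0.45). The list median was -0.16, 4 of 6 lay below 0, and 1 was not bounded within 2-fold.

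Cell division genes were bounded in 30 of 36 at a low mean signal of 4.48, with Top2a at 0.07 (-0.27 to 0.42). Besides Haspin, the members at an unadjusted p under 0.05 were Foxm1 and Ube2c, both higher. Foxm1, a transcription factor of mitotic genes, was 3.24, 3.39 and 3.39 in Y3 and 4.0, 4.13 and 4.14 in Y3/CD103-/- (0.75, adjusted p = 0.298, limma), and Ube2c, which feeds the anaphase-promoting complex, was 3.53, 2.75 and 3.46 against 4.01, 4.04 and 3.97 (0.76). Both lay within 1 log2 of the array medians of 3.15 to 3.23, where signal is close to that of the typical feature.

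Genes singled out in an earlier reading of Y3 against WT were then followed in this comparison. Both comparisons share the Y3 arrays, so their differences are given side by side and not related to each other. Of 29 such genes, 0 passed here, 21 were bounded within 2-fold and 7 within 1.5-fold. Among all tested genes the shares were 88.5% and 37.4%, so this set was bounded less often than all genes. Cd7, a surface protein of T and NK cells, was 8.44, 8.12 and 8.12 in Y3 and 7.86, 7.94 and 8.39 in Y3/CD103-/- (-0.16, -0.60 to 0.28), beside 3.48 for Y3 minus WT. Il12rb2 differed by 0.07 (-0.37 to 0.50) beside 2.08, Nkg7 by -0.09 (-0.48 to 0.29) beside 2.03, and Ccl5 by -0.10 (-0.50 to 0.29) beside 1.91. Klrg1 differed by -0.05 (-0.70 to 0.60) beside -2.05. These 5 overlapped between Y3 and Y3/CD103-/- and were bounded. The 8 not bounded were Xcl1, Socs2, Il17rb, Mctp2, Dapk2, H2-Aa, Ccl3 and Atf3, and they lay from -0.75 to 1.25. Socs2 was 2.83, 3.58 and 3.34 in Y3 and 3.39, 4.57 and 3.61 in Y3/CD103-/- against 5.27 to 5.52 in WT, so its Y3/CD103-/- arrays overlapped those of Y3 and lay below WT.

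Of the largest remaining differences, none passed. Erdr1 had the smallest p among the higher genes: it was 8.24, 8.02 and 7.64 in Y3 and 9.30, 9.34 and 9.01 in Y3/CD103-/- (1.25, 0.82 to 1.69, adjusted p = 0.179, limma). Its arrays did not overlap, and it passed when the several features of a gene were averaged (adjusted p = 0.00955) and with a trended and robust variance (0.00198). Plau, the urokinase protease, and Apoe, the apolipoprotein E gene, were higher by 0.83 and 0.87. Pbx2, a homeobox factor, had the smallest p after Itgae: it was 3.98, 4.15 and 4.15 in Y3 and 2.96, 3.04 and 2.81 in Y3/CD103-/- (-1.16, -1.49 to -0.82, adjusted p = 0.0730, limma). Tagap1, a GTPase-activating protein of T cells, was 4.94, 4.54 and 4.73 against 3.04, 3.35 and 3.60 (-1.41, adjusted p = 0.122, limma). The Y3/CD103-/- signals of Pbx2 and Tagap1, between 2.81 and 3.60, lay around the array medians of 3.15 to 3.23. Pbx2 also passed with averaged features, with the trended variance and with array weights (adjusted p from 0.0215 to 0.0485), and Tagap1 with the last 2 of these.

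The genes whose pattern over the 9 arrays was most like that of Itgae were sought by Pearson's correlation, as a description over arrays that include those defining the comparison. Celf1, an RNA-binding protein, came first (r = 0.97), followed by Pnpt1, Rufy2, Ccdc58, Tuba1b and Orc4 (r = 0.96 to 0.94). Their differences between Y3/CD103-/- and Y3 lay between -0.86 and -0.33, far smaller than that of Itgae. Among features outside the gene tests, 7149 with no annotated gene and 1060 with several genes were above the filter, and 0 of them passed in limma, with 669 and 78 at an unadjusted p under 0.05. Itgae passed in that wider table too (adjusted p = 0.0145).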

How the data were processed

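The deposited values are log2 signals made by RMA, per the submitters' processing notes, in 1 column per array; no RMA version, annotation release or build is given in the sources used here. Of the 39137 features, 23521 had exactly 1 gene symbol, 1814 several and 13802 none. The brightest feature stood for each of 22180 genes, and the 12792 whose signal exceeded its array's median on 3 or more of the 9 arrays were tested. A group-means model over all 9 arrays was fitted with limma 3.58.1 in R 4.3.3 (lmFit and eBayes), with Benjamini-Hochberg adjustment over all tested genes and a threshold of 0.05. The number of arrays, 3 per group, limits the precision. An exact permutation test of 3 against 3 arrays cannot go below p = 0.1, so none was used. Simulated data for this comparison had 12792 genes, 200 of them changed, with independent normal noise. The share of 2-fold changes found was 60%, that of 4-fold changes 98%, and 94.7% of intervals held the true value. Unchanged genes gave 10 calls. With 1 gene called in the real data the adjusted threshold is stricter there, so these shares do not measure the power reached here. Genes were named from a written rule, and not all the genes it gave are named above. The rule took the leading genes by p in each direction, with predicted and small RNA genes left out. It also took the extremes and the tightest members of each list, the neighbours of Itgae, the genes most like Itgae and a fixed set. Other genes, such as Tnfaip3 or Muc2, were chosen after their values were seen. The members, lists and rules were chosen with earlier results of these data known. Gene order came from the GRCm38.p6 gene table, and promoter windows from RefSeq. Genes without a single-gene feature, such as Il2rg, were not analysed here, and 1 gene list is not reported here.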

Additional observations from a re-analysis of the deposited data

How the results depend on the processing

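Of 21 alternatives, none reversed the sign of a called value, and Itgae passed in each of them. The count of genes called higher was 1 with averaged features and 1 with a trended and robust variance, and 0 to 1 with each array left out. The count called lower was 2 with averaged features, 9 with the trended variance, 9 with array weights and 2 at an adjusted p under 0.1, and 1 to 2 with each array left out. The number bounded within 2-fold was 18970 without the filter on dim genes, where more genes were tested, and 10249 to 11434 with each array left out. The number was 4786 under the 1.5-fold bound. Itgae ran from -2.98 to -2.57 with each array left out. For 369 named genes, 7490 of 7687 values under the alternatives did not pass and moved by less than the replicate spread. Another 14 passed and were not classed by movement. Several alternatives leave a gene's difference unchanged by construction. Among them are the trended variance, the replicate block, the fit without WT arrays and each WT array left out. The count is therefore not a measure of stability. Centring the tested genes was added after seeing the data. The cause of these differences was not tested.

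The replicate numbers did not pair the samples: arrays of the same number correlated in their deviations at -0.04 to 0.11. With the replicate number as a block, 0 genes were called higher and 1 lower, Itgae (adjusted p = 0.00180), and 11321 were bounded within 2-fold.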
